A study of Tachysurus fulvidraco x Tachysurus vachelli with 9 samples.

Results

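Of the 26163 genes in the expression table of hybrid yellow catfish intestine, 10 carried the product name C-C motif chemokine 3 (1 of them, LOC113649479, beside CC chemokine SCYA120), and 4 of these 10 loci are described here, LOC113638210, LOC113663541, LOC113649477 and LOC113663546. They were chosen by locus name from their levels after transport, with LOC113638210 and LOC113663541 lower and LOC113649477 and LOC113663546 higher than in untreated fish. The Str vs. Ctrl values below are therefore what chose the loci and are given as a description, with no test. The fish were offspring of a *Tachysurus fulvidraco* mother and a *Tachysurus vachelli* (also written *Pseudobagrus vachellii*) father, and RNA of the posterior intestine was sequenced from untreated fish (Ctrl, the 0 h group of the study), fish after 16 h of simulated transport (Str) and fish that had 96 h of recovery after the same 16 h (Rec), with 3 individuals in each group. The study used 3 transport bags per treatment group, with 0 h among its treatment times, and the labels do not tie individuals to bags. Food was withheld before the simulated transport. Reads of the hybrid were mapped to the genome of the maternal species, so reads from paternal alleles could only be placed on maternal loci. Total counts ranged from 60670586 to 63899568 in Ctrl, from 48605412 to 60279138 in Str and from 54829614 to 73110636 in Rec. The defining enterocyte markers were high in all groups, and *fabp2*, the intestinal fatty acid-binding protein, averaged 515 FPKM (fragments per kilobase of transcript, scaled to library depth) in Ctrl, 134.3 FPKM in Str and 1625 FPKM in Rec.

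Chemokines are small secreted proteins that draw leukocytes along a concentration gradient. In mammals CCL3, also called macrophage inflammatory protein 1-alpha, is made by macrophages, T cells and natural killer cells and acts on monocytes, T cells and other leukocytes, and the Toll-like receptor and NF-kB pathways induce its gene. Fish have many C-C chemokine genes that arose by local duplication, and a product name taken over from mammals does not establish that a fish locus has the same receptor or role.

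LOC113638210 lies on the minus strand of scaffold NW_020848266.1 from 11028 to 12410. Its level was 64.4, 30.1 and 152 FPKM in Ctrl-1, Ctrl-2 and Ctrl-3, it was 2.77, 2.11 and 2.84 FPKM in the Str libraries, and it was 56.6, 44.5 and 56.5 FPKM in the Rec libraries. LOC113663541 lies on the plus strand of another scaffold, NW_020848111.1, from 167302 to 168679. Its level was 64.5, 30.2 and 151 FPKM in Ctrl, 2.77, 2.09 and 3.08 FPKM in Str and 56.8, 44.7 and 56.9 FPKM in Rec. At both loci the 3 Str libraries lay far below every other library, and the Ctrl libraries spread more widely than the Rec libraries, with Ctrl-2 below and the other Ctrl libraries above all of Rec. The mean of LOC113663541 was 82.0 ± 62.4 FPKM in Ctrl, 2.65 ± 0.505 FPKM in Str and 52.8 ± 7.03 FPKM in Rec (SD, n = 3 in each). The log2 fold change in Str vs. Ctrl was -4.92 (SE 0.548) for LOC113638210 and -4.88 (SE 0.55) for LOC113663541. With any single library left out, the values of both loci stayed between -5.32 and -4.25. Over all genes tested, 16.1% had all 3 Str libraries below all 3 Ctrl libraries, as these 2 loci did.

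**Figure D1:**
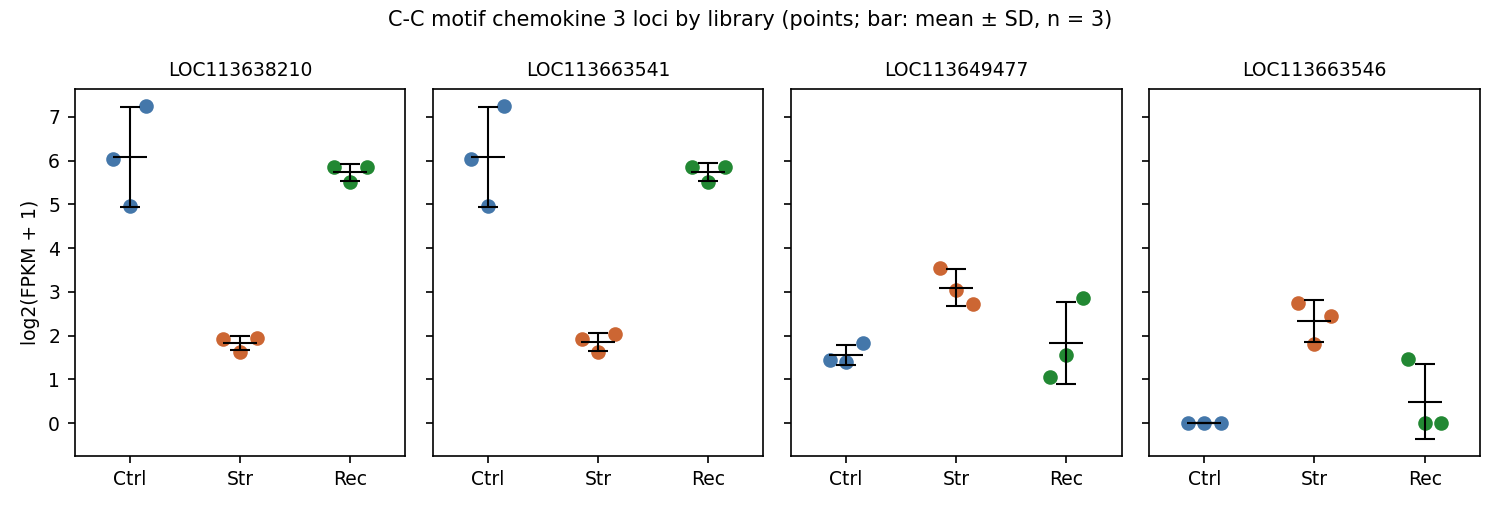
Level of the 4 C-C motif chemokine 3 loci as log2(FPKM + 1) in each of the 9 libraries, by group; points are libraries and black bars the mean ± SD (n = 3). LOC113638210 and LOC113663541 are lowest in the 3 Str libraries and have the same pattern, while LOC113649477 and LOC113663546 are higher in every Str library than in every Ctrl library.

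LOC113638210 and LOC113663541 cannot be taken as independent measurements. Their counts were 2685 and 2687 in Ctrl-1, 1186 and 1186 in Ctrl-2, 6170 and 6153 in Ctrl-3, 110 and 110 in Str-1, 81 and 80 in Str-2, and 93 and 100 in Str-3. In Rec they were 2037 and 2039, then 2144 and 2146, then 2288 and 2299. Over the 9 libraries the counts differed by 42 in all, which is 0.25% of the mean total of the pair (16794 and 16800 counts). Among 16229 tested genes with at least 1000 counts in total, this was the 1 pair whose counts differed by less than 1%. The next closest pair of C-C chemokine loci, LOC113656599 and LOC113656600, differed by 14.6%. The loci also share their annotation, the ortholog group K16597, the GO term for eosinophil chemotaxis and the KEGG pathway Asthma, and no other C-C chemokine locus in the table was assigned to that pathway. The ortholog group was also given to LOC113649478, and the GO term to several other C-C chemokine loci, such as LOC113663547. The other chosen loci carry different ortholog groups, K12964 for LOC113649477 and K05408 for LOC113663546. Both were assigned to the Toll-like receptor signaling pathway, whereas LOC113638210 and LOC113663541 were not. The shared product name thus does not establish that all chosen loci encode the same chemokine. Reads that fit several near-identical copies can be counted at each of them, and how the authors' counting treated such reads is not stated. Which of the 2 loci the RNA came from is therefore uncertain, and they are treated below as 1 measurement, called the pair.

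**Figure D2:**
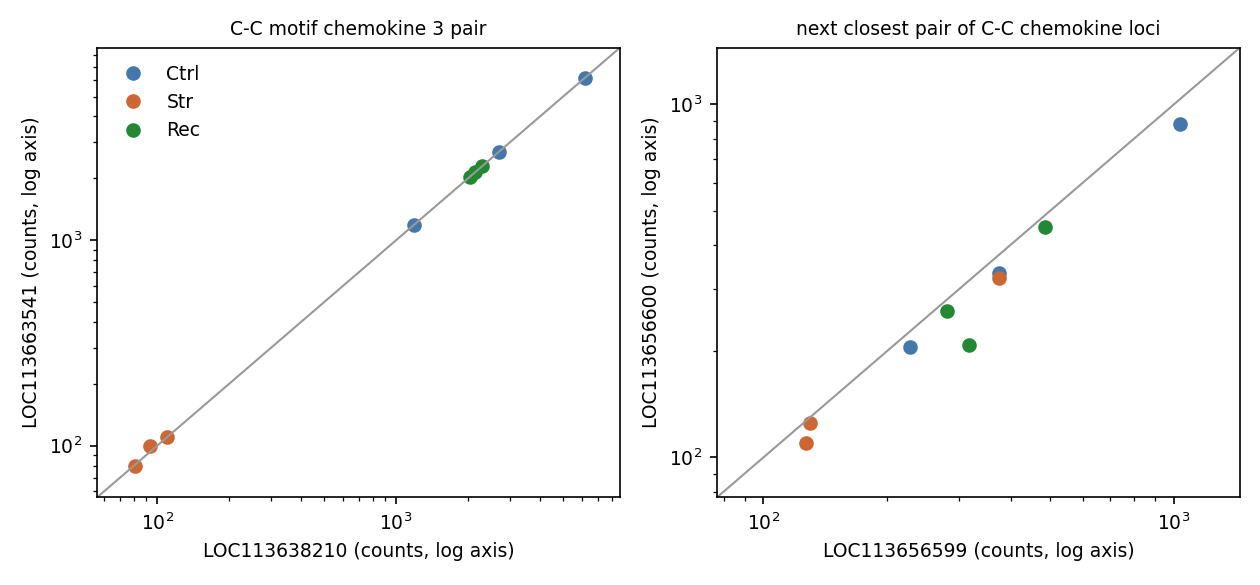
Counts of LOC113663541 against LOC113638210 (left) and of LOC113656600 against LOC113656599 (right) in the 9 libraries, on log axes; the grey line marks equal counts and colours mark groups. The left points lie on the line, with a summed difference of 0.25%, and the right points all lie below it, with a summed difference of 14.6%.

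LOC113649477 lies on the plus strand of scaffold NW_020847874.1 from 143799 to 150311 and was assigned to the Toll-like receptor signaling pathway. Its level was 1.73, 1.64 and 2.56 FPKM in the Ctrl libraries, 10.7, 7.20 and 5.59 FPKM in the Str libraries, and 1.07, 1.95 and 6.28 FPKM in Rec-1, Rec-2 and Rec-3. All Str libraries were higher than all Ctrl libraries, as for 14.4% of all genes tested, whereas Rec was not uniform: Rec-1 and Rec-2 were near Ctrl, and Rec-3 lay within the range of Str. Group means were 1.98 ± 0.505 FPKM in Ctrl, 7.82 ± 2.59 FPKM in Str and 3.10 ± 2.79 FPKM in Rec (SD, n = 3 in each), and the log2 fold change in Str vs. Ctrl was 2.03 (SE 0.617). The locus lies inside the span of LOC113649470 on the same strand, for which the table holds 2 models, so reads there may have been divided between genes. The model from 71210 to 152431 had 0.131, 0.175 and 10.9 FPKM in Ctrl and 9.99, 13.1 and 0.0691 FPKM in Str. It had 0.0481, 0 and 4.22 FPKM in Rec, and its groups overlapped. As at LOC113649477, its Ctrl-3 and Rec-3 were the highest and its Str-3 the lowest of their groups. The model from 95567 to 161312 had 0, 3.17 and 0.078 FPKM in Ctrl and 2.32, 0.226 and 1.76 FPKM in Str. In Rec it had 1.505, 0.618 and 0.966 FPKM, its groups overlapped, and it did not share this order. The part of shared reads in the level of LOC113649477 was not tested.

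LOC113663546 lies on scaffold NW_020848111.1 from 99263 to 100305, on the same scaffold and strand as LOC113663541, and was also assigned to the Toll-like receptor signaling pathway. It had 0 counts in all 3 Ctrl libraries, 169, 72 and 110 counts in the Str libraries, 49 counts in Rec-1 and 0 counts in Rec-2 and Rec-3. These counts correspond to 5.69, 2.51 and 4.49 FPKM in Str and 1.78 FPKM in Rec-1. Thus the locus was detected in every Str library and in 1 of 6 others. A read pair was usually, but not always, worth 4 counts in this table, and a count of 0 was taken to allow up to 3 read pairs, or 12 counts, per library. Against that floor in each Ctrl library, the mean of Str was at least 11.0-fold higher, with values of 14.8, 6.77 and 11.5 for the single Str libraries. This bound covers counting error only, and it is a description, since this contrast chose the locus.

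Over all 17244 genes tested 5.88% passed an adjusted p of 0.05 in Str vs. Ctrl with edgeR, 480 of them higher and 534 lower. In the same contrast DESeq2 called 1128 genes higher and 1412 lower. At an unadjusted p below 0.05 in edgeR 1845 were higher and 2135 lower. The 4 loci were chosen on this contrast, and no call is given for them. A level in whole tissue does not separate fewer cells of a type from less RNA per cell.

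The comparison of Rec with Str asks whether the levels after 96 h of recovery differed from those at the end of transport. The Rec libraries had no part in choosing the loci, but the 3 Str libraries did, so the comparison is not independent of the choice. Because the loci were chosen for low or high levels in Str, a shift back in Rec is favoured in advance. The adjusted p of each locus is therefore given as a value only. The pair rose, with a log2 fold change of 4.45 for LOC113638210 (SE 0.537) and 4.42 for LOC113663541 (edgeR's quasi-likelihood test, Benjamini-Hochberg adjusted p = 0.00717 for both). In all 3 Rec libraries the pair was higher than in all 3 Str libraries, and across all genes tested 9.14% passed in this contrast, 5.03% rose, and 11.8% had no overlap in this direction. With any single library left out the adjusted p stayed between 0.00227 and 0.0333. LOC113649477 had a log2 fold change of -1.28 (edgeR adjusted p = 0.215), against 4.11% of all genes that fell, and Rec-3 lay within Str. Without Rec-3 the log2 fold change was -2.14 (edgeR adjusted p = 0.0492), so its size depends on 1 library, and this p too is a value only. For LOC113663546 the log2 fold change was -2.72 (edgeR adjusted p = 0.433), and every Rec library was below every Str library, as for 17.2% of all genes tested. This locus passed the filter on low values through its Str libraries and was chosen for being high there, so a lower level in Rec is no support for a change. For that reason the adjusted p of 0.0452 in edgeR without Rec-1, when all remaining Rec counts were 0, and that of 0.0279 in limma on log2(FPKM + 1) are given as values only.

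Rec vs. Ctrl shared the Ctrl libraries with the contrast that chose the loci. The log2 fold change of the pair was -0.46 at both loci (edgeR adjusted p = 0.934 for LOC113638210 and 0.935 for LOC113663541), that of LOC113649477 was 0.76 (edgeR adjusted p = 0.911), and the groups overlapped at each of these loci, while 7.42% of all genes tested had Rec below Ctrl and 2.56% had Rec above Ctrl without overlap. With any single library left out, the value of LOC113638210 ranged from -0.87 to 0.19, and that of LOC113649477 from -0.10 to 1.16. No gene of the table passed in this contrast with edgeR (0 of 17244, or 0%), with 1002 genes at an unadjusted p below 0.05, while DESeq2 called 115 and limma on log2(FPKM + 1) called 0. A p above the threshold does not show that Rec and Ctrl had equal levels.

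Because FPKM is scaled to length, the levels of the loci can be set beside each other. The ratio of LOC113663541 to LOC113649477 ranged from 18.4 to 59.2 in Ctrl, from 0.26 to 0.55 in Str and from 9.06 to 53.3 in Rec. Thus LOC113663541 exceeded LOC113649477 in every Ctrl and Rec library and was below it in every Str library. This counts the pair once. Were reads instead divided between the 2 loci, the level of the pair would be the sum of both. In Str-3 LOC113638210 and LOC113663541 had 2.84 and 3.08 FPKM, and LOC113649477 had 5.59 FPKM. The order in Str-3 and the shares of the pair therefore depend on how such reads were counted. With the pair counted once, the summed level of the C-C motif chemokine 3 loci was 43.2 to 171 FPKM in Ctrl, against 15.04 to 25.3 FPKM in Str and 50.3 to 73.1 FPKM in Rec. The pair made up 69.8% to 88.5% of that sum in Ctrl, 11.0% to 14.97% in Str and 77.9% to 88.9% in Rec. The share of LOC113649477 was 1.49% to 3.79% in Ctrl, 27.2% to 47.9% in Str and 1.61% to 8.60% in Rec, and that of LOC113663546 was 0% in Ctrl, 16.7% to 22.5% in Str and 0% to 2.69% in Rec. The order of levels in Ctrl was the pair, then LOC113651483, then LOC113649477, with ranges that did not overlap. In Str, LOC113649477 (5.59 to 10.7 FPKM) and LOC113663546 (2.51 to 5.69 FPKM) overlapped, as did LOC113663546 and the pair (2.09 to 3.08 FPKM for LOC113663541).

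**Figure D3:**
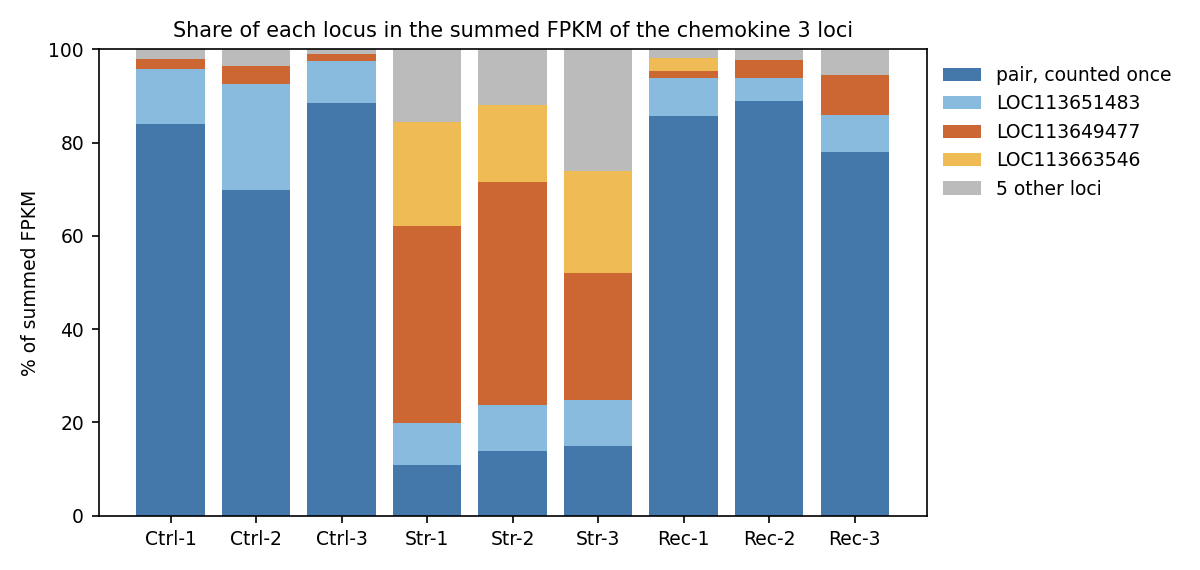
Percentage of the summed FPKM of the C-C motif chemokine 3 loci taken by each locus in the 9 libraries, with the pair counted once. The pair holds at least 69.8% in each Ctrl and Rec library and at most 14.97% in each Str library, where LOC113649477 holds 27.2% to 47.9% and LOC113663546 16.7% to 22.5%.

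Of the other 6 loci with this product name, LOC113651483 had 9.11, 9.82 and 15.5 FPKM in Ctrl, 2.27, 1.47 and 2.04 FPKM in Str and 5.41, 2.46 and 5.90 FPKM in Rec. It fell in Str vs. Ctrl (log2 fold change -2.50, SE 0.423, edgeR adjusted p = 0.0150), and all Rec libraries were between the other groups. LOC113649479, which is also named CC chemokine SCYA120, and LOC113649484 lie on the same scaffold as LOC113649477 and had log2 fold changes of 1.84 and 0.96 in Str vs. Ctrl (edgeR adjusted p = 0.161 and 0.424). LOC113649479 was 0.343 to 0.651 FPKM in Ctrl and 0.775 to 2.67 FPKM in Str. The remaining 3, LOC113663545, LOC113649476 and LOC113635032, did not reach the minimum of 1 FPKM in 3 libraries and were not tested. LOC113663545 had 4, 8 and 4 counts in Ctrl and 0 counts in each Str library, while LOC113635032 had 19 counts in Str-3 and 0 counts elsewhere. A further 8 loci were annotated with the older name small inducible cytokine A3, of which 7 were tested. One of them, a merged locus of LOC113635028, LOC113635025 and LOC113635031, is also named CC chemokine SCYA104. All 7 had a log2 fold change below 0 in Str vs. Ctrl (median -1.19). The groups did not overlap at 1 of the 7, the merged locus, and 16.1% of all genes tested had no overlap in this direction. None of the 7 passed in edgeR (0), with 2 at an unadjusted p below 0.05 and 1 called by DESeq2. Over all 17244 genes, 2135 were lower at an unadjusted p below 0.05 in edgeR, and DESeq2 called 1412 falls.

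The sign of the difference was the same within some scaffolds and mixed within others. Tested C-C chemokine loci had both signs on NW_020848111.1. They also did on NW_020847905.1 (LOC113651480 at a log2 fold change of 0.03) and on NW_020847979.1 (LOC113656601 at 0.58), with the other tested loci there below 0. Scaffold NW_020848111.1 held 9 genes, 7 of them C-C chemokine loci and all on the plus strand. LOC113663546, at 0 counts in Ctrl, was followed after 9646 bases by LOC113663547, annotated as C-C motif chemokine 14-like, which fell, with means of 23.5 ± 10.8 FPKM in Ctrl and 1.41 ± 0.724 FPKM in Str (SD, n = 3, log2 fold change -3.95, edgeR adjusted p = 0.0065) and a Rec mean of 13.9 FPKM. LOC113663548 fell as well (log2 fold change -3.68, edgeR adjusted p = 0.0137), LOC113663544 had a log2 fold change of -5.73 that did not pass (edgeR adjusted p = 0.0813), and LOC113663541 came last of the 7. Of the 5 tested C-C chemokine loci on this scaffold, LOC113663546 was thus the first in order and the 1 that was higher in Str. On NW_020847874.1, the scaffold of LOC113649477, 5 of 53 genes were C-C chemokine loci, and the 2 others tested were above 0, as LOC113649477 was, without passing. LOC113638210 was the 1 C-C chemokine locus among the 5 genes of its scaffold.

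**Figure D4:**
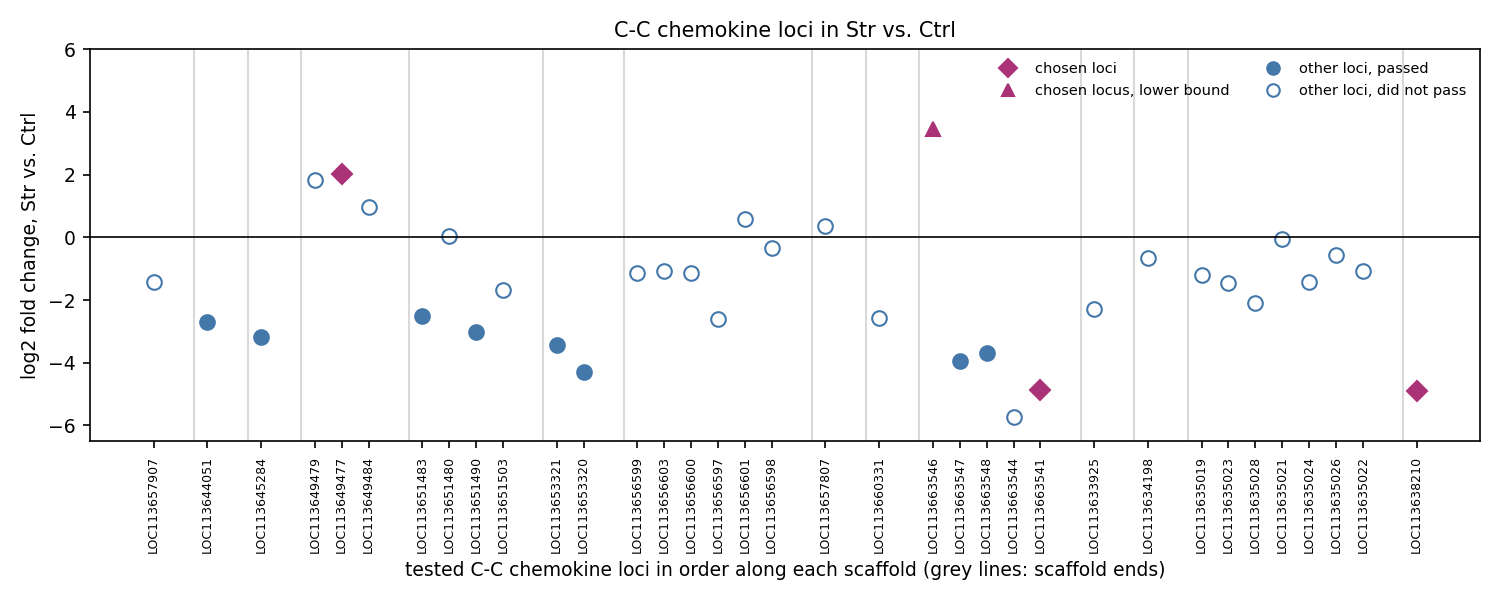
Log2 fold change in Str vs. Ctrl of the tested C-C chemokine loci in their order along each scaffold; diamonds are chosen loci, the triangle is LOC113663546 at its lower bound of 3.46, and filled circles are other loci that passed. LOC113663546 and LOC113663541 lie on 1 scaffold, with 2 loci that fell between them.

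Over the whole C-C chemokine list, which was completed with the product names of this table in view, 31 of the 44 loci other than the chosen ones were tested. In Str vs. Ctrl 8 of these 31 fell and 0 rose, with a median log2 fold change of -1.44 and 26 values below 0, against 3.1% falling, 2.78% rising and a median of -0.00 over all genes tested. The loci that fell included LOC113651490 (regakine-1-like, 17.9 to 2.11 FPKM), LOC113644051 (192 to 28.5 FPKM), LOC113645284 (179.7 to 17.9 FPKM), annotated as C-C motif chemokine 25-like, which in mammals draws lymphocytes to the small intestine, and LOC113653320 (10.6 to 0.498 FPKM), annotated as C-C motif chemokine 19-like, a ligand of CCR7 in mammals. At an unadjusted p below 0.05 in edgeR 13 of the 31 were lower and 1 was higher, against 2135 and 1845 over all 17244 genes. DESeq2 called 11 falls and 0 rises among the 31, against 1412 and 1128 over all 17244 genes. In Rec vs. Str 7 of the 31 rose and 0 fell, against 5.03% and 4.11% of all genes, or 4 without Str-1 or Str-2 and 1 without Str-3. The count of 8 depended on single libraries and dropped to 4 without Ctrl-2, to 1 without Ctrl-3, to 5 when Str-1 or Str-2 was left out and to 1 for Str-3. Over all genes the falls were then 158, 49, 200, 322 and 39 in the same order. The Toll-like receptor annotation, which LOC113649477 and LOC113663546 carry, did not separate the list. Of 10 other tested C-C loci in that pathway 3 fell and 0 rose (median -1.79), and of 21 outside it 5 fell and 0 rose (median -1.41).

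Among the other chemokines, 4 of 14 tested fell and 0 rose in Str vs. Ctrl (median log2 fold change -1.67), against 3.1% and 2.78% of all genes. LOC113637706 (C-X-C motif chemokine 11-like) went from 11.9 to 0.302 FPKM (log2 fold change -5.08, edgeR adjusted p = 0.0150) and LOC113639895 (C-X-C motif chemokine 10-like) from 80.9 to 7.46 FPKM (log2 fold change -3.43, edgeR adjusted p = 0.0313). In mammals both are interferon-induced chemokines that attract activated T cells. They were 5.12 and 68.4 FPKM in Rec. The count of 4 was 2 without Ctrl-2, 1 without Str-1 and 0 without Ctrl-3 or Str-3.

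Chemokine receptors are G protein-coupled receptors on the cells that chemokines attract. In Str vs. Ctrl 3 of the 24 receptors tested fell and 1 rose in edgeR, against 3.1% falling and 2.78% rising over all genes, and 0 passed without Ctrl-3 or Str-3. DESeq2 called 12 falls and 2 rises among the 24, against 1412 falls and 1128 rises over all 17244 genes. *ackr3*, a scavenging receptor that takes up CXCL12 and CXCL11 in mammals, rose from 12.3 to 53.5 FPKM (log2 fold change 2.22, edgeR adjusted p = 0.0225), a call that was lost when any 1 of the 6 Ctrl and Str libraries was left out. *ccr7*, which guides lymphocytes and dendritic cells, fell from 18.7 to 2.55 FPKM (log2 fold change -2.76, edgeR adjusted p = 0.0226).

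In Str vs. Ctrl the NF-kB pathway had 2 rises and 0 falls among 27 tested genes, with a median log2 fold change of 0.16 that was -0.06 without Str-2. A share of 7.41% passed, near the 5.88% over all genes, and 0 passed without Ctrl-3, Str-1 or Str-3 and 1 without Ctrl-1, Ctrl-2 or Str-2. The rises were *irak3*, an inhibitor of Toll-like receptor signaling in mammals (2.83 to 10.8 FPKM, log2 fold change 2.05, edgeR adjusted p = 0.0312), and a locus in which *nfkb1* is merged with *dgkq* (1.92 to 8.19 FPKM, log2 fold change 2.19, edgeR adjusted p = 0.0193), so that its reads cannot be assigned to *nfkb1* alone. Both were lower again in Rec, at 2.13 and 2.24 FPKM. The product of the merged locus was given as diacylglycerol kinase theta. An *nfkb1* locus of the same list that is not merged had a log2 fold change of 0.003 in Str vs. Ctrl and did not pass.

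Of the leukocyte lists, those of T cells, NK and cytotoxic cells and neutrophils held several genes that fell in Str, where the pair was lower. The median log2 fold change was -2.20 in the NK and cytotoxic list. It was -0.57 in the neutrophil list, where 7 of 10 tested genes were below 0 and 3 were above. Over all genes tested 3.1% fell and 2.78% rose. In the T cell list 7 of 11 tested genes fell and 0 rose (median log2 fold change -1.85), and the summed level was 70.2 to 160 FPKM in Ctrl, against 22.9 to 30.5 FPKM in Str and 41.0 to 90.8 FPKM in Rec. *cd3e*, a chain of the T cell receptor complex, went from 20.4 to 4.04 to 11.6 FPKM across Ctrl, Str and Rec. In the NK and cytotoxic list 4 of 12 fell and 0 rose, with sums of 33.0 to 88.03, 15.9 to 17.5 and 22.9 to 36.3 FPKM. The macrophage list had 1 of 10 falling, and its sums overlapped between Ctrl (173.5 to 607 FPKM) and Str (124 to 231 FPKM), as did those of the neutrophil list (3 of 10 falling, but 0 without Ctrl-3 or any 1 Str library). The 1 macrophage call was lost without Ctrl-2, Ctrl-3, Str-2 or Str-3, and 3 passed without Ctrl-1. Of the 10 macrophage genes, 9 had a log2 fold change below 0 (median -1.11). At an unadjusted p below 0.05 in edgeR 6 of them were lower and 1 was higher, and DESeq2 called 3 falls. In the B cell list 0 of 7 passed in edgeR (3 were lower at an unadjusted p below 0.05, and DESeq2 called 2), and sums were 30.1 to 54.7 FPKM in Ctrl, 19.6 to 25.2 FPKM for Str and 13.8 to 23.3 FPKM for Rec, and the B cell sums of Rec did not exceed those of Str. The defining markers of these lists were detected in Str, although 1 of 10 perforin-1-like loci, LOC113656193, was at 0 there. The T cell count was 3 without Ctrl-2 or Str-1, 2 without Ctrl-3 or Str-3 and 4 without Str-2, and the NK count was 2 without Ctrl-2, 1 without Ctrl-3, Str-1 or Str-2 and 0 without Str-3. With all libraries the NK count was 1 in limma on log2(FPKM + 1), 1 with the replicate block and 7 with DESeq2. The part of these cells in the lower level of the pair in Str was not tested.

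The summed level of the liver list was 4.94 to 16.6 FPKM in Ctrl, against 17.2 to 78.0 FPKM in Str and 4.46 to 16.7 FPKM in Rec, although 0 of its 5 tested genes passed in edgeR in Str vs. Ctrl (2 were higher at an unadjusted p below 0.05, and DESeq2 called 2). Its part in the levels of LOC113649477 and LOC113663546 was not tested. The enterocyte list had 1 of 16 genes falling in edgeR, against 3.1% of all genes, and 0 without any 1 Ctrl or Str library or Rec-1. However, 15 of the 16 had a log2 fold change below 0 (median -1.36, against -1.44 for the C-C chemokines). At an unadjusted p below 0.05 in edgeR 9 were lower and 1 was higher, and DESeq2 called 7 falls and 1 rise. Sums were 5079 to 10960 FPKM in Ctrl, against 2297 to 3394 FPKM in Str and 11520 to 23980 FPKM in Rec.

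**Figure D5:**
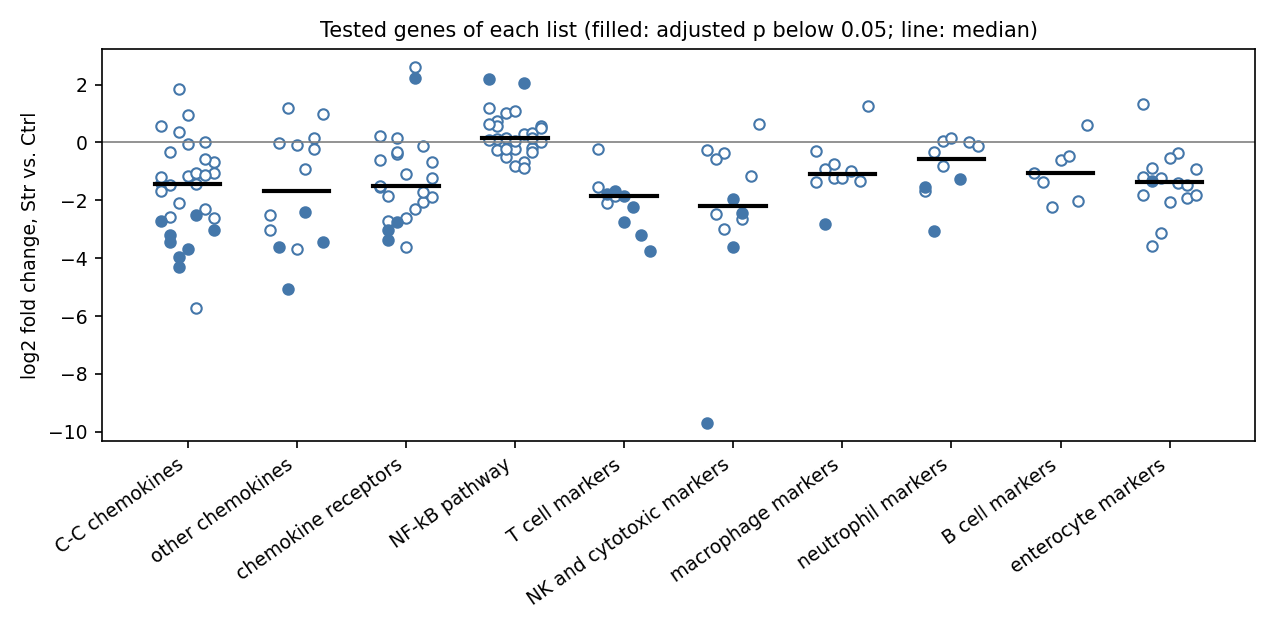
Log2 fold change in Str vs. Ctrl of the tested genes in each list except the liver list, without the 4 chosen loci. Filled points passed at an adjusted p below 0.05 and black lines are medians. The liver list, which is not drawn, had a median of 1.58 over 5 tested genes, of which 0 passed. The medians are -1.44 for C-C chemokines, -1.85 for T cell markers, -1.36 for enterocyte markers and 0.16 for the NF-kB pathway. The lowest point of the cytotoxic list is a fitted value of a gene with 0 counts in Str and is no measure of size.

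The genes whose pattern was most like that of each locus were found by Pearson's r of log2(FPKM + 1) over the 9 libraries, among 9864 genes with an informative name and at least 5 FPKM in a group, as a description across libraries that share the 3 groups. For the pair the first was LOC113646393, annotated as a CD8 alpha precursor, a co-receptor of cytotoxic T cells (r = 0.971 with LOC113638210, and 0.872 after removal of group means), at 14.7, 1.62 and 9.11 FPKM in Ctrl, Str and Rec. It was followed by *acsl5*, *id3* and *prss35* (r of 0.962, 0.960 and 0.957). LOC113649477 was most like *mettl1*, a tRNA methyltransferase, *psmb7*, a proteasome subunit, *ak6* and *gpn3* (r of 0.979, 0.973, 0.966 and 0.963), and *psmb7* averaged 17.2, 40.4 and 22.4 FPKM in the 3 groups. LOC113663546 was most like *vezt*, LOC113635037 (GREB1-like), LOC113650492 (hepatic leukemia factor) and LOC113654197 (r of 0.982, 0.977, 0.973 and 0.973). LOC113649477 and LOC113663546 thus had no gene in common among these. Between themselves their r was 0.613 over the 9 libraries and -0.48 after removal of group means, and Str-1 was the highest of Str for both. LOC113638210 and LOC113649477 had an r of -0.73, which was 0.241 after removal of group means.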

How the data were processed

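The authors sequenced the libraries on an Illumina NovaSeq, trimmed with Cutadapt 1.9 and aligned to the genome of *Tachysurus fulvidraco*. The submitters' processing notes also list HISAT and StringTie. Their versions, the genome build and the making of the counts were not given in the sources used, and coordinates are those of the deposited table. The authors deposited FPKM per gene and whole-number expected counts that were not scaled between libraries. The counts were tested as deposited with edgeR 4.0.16 (TMM, a factor for the 3 groups, all 9 libraries, quasi-likelihood F-test, two-sided), for the 17244 of 26163 genes that reached 1 FPKM in 3 or more libraries, adjusted by Benjamini-Hochberg over all of them. The SE was taken as the size of the log2 fold change over the root of F. The script was tested on simulated data. Alternatives were DESeq2 1.42.0, limma 3.58.1 on log2(FPKM + 1) and log2(FPKM + 0.1), RLE scaling, no filter, counts divided by 4, a fit of only the groups compared, a replicate block and leaving out each library. Summing the pair into 1 row was added after seeing the data. Scripts ran in R 4.3.3 and in Python 3.11.15 with matplotlib 3.10.9, pandas 2.3.3 and numpy 2.4.6.

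The 4 loci and all gene lists were chosen with earlier results of these data known. Lists were matched by symbol or product, and their patterns were completed, and large families with shared names dropped, once the product names were seen. Genes named besides the loci are the other loci with the product, in each chemokine, receptor and NF-kB list the 4 with the smallest p in Str vs. Ctrl and 1 FPKM or more in the group with the higher mean, the 4 genes most like each locus, and defining markers. Other C-C chemokine loci, LOC113649470, LOC113656193 and the *nfkb1* locus that is not merged were chosen after their values were seen. Replicates are 3 individuals per group, and p-values measure the spread between them. No sequence of the loci was used here. Results for some single genes are left out here.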

Additional observations from a re-analysis of the deposited data

How the results depend on the processing

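The pair rose in Rec vs. Str under all 8 alternatives (9 for LOC113663541, which stands for the pair when both are summed, an alternative chosen after seeing the data), with log2 fold changes of 3.88 to 4.50 and an adjusted p of at most 0.0181, and without any single library, at 4.35 to 4.53 for LOC113638210 and 4.30 to 4.52 for LOC113663541. All of these fits share the Str libraries that chose the pair, so they do not remove the effect of that choice. The count of genes passing in Str vs. Ctrl was 1014, but 2540 with DESeq2 and 115 to 1423 with a library left out. In Rec vs. Str it was 1577, but 3193 with DESeq2, 677 with only the groups compared and 247 to 1525 with a library left out. In Rec vs. Ctrl it was 0, but 115 with DESeq2, 1 with limma on log2(FPKM + 0.1) and 0 to 2 with a library left out. The cause of these differences was not tested. Leaving out a library also lowers the number of samples, and the Str vs. Ctrl count was 1423 without Rec-3. With the replicate block the counts were 623 in Str vs. Ctrl and 893 in Rec vs. Str. The correlations of deviations between same-numbered libraries ranged from -0.26 to 0.188. Those between differently numbered libraries were not computed, so these values cannot decide whether the shared numbers pair the libraries. The block changed no call of the 4 loci in the comparisons with Rec.

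The Str vs. Ctrl value of LOC113649477 was 1.54 in limma on log2(FPKM + 1), a scale that understates changes of low genes, and 1.75 to 2.24 with a library left out. Its Rec vs. Str value ranged from -2.14 (adjusted p = 0.0492, edgeR, without Rec-3) to -0.87. That of LOC113663546 was -1.84 in limma on log2(FPKM + 1) and -9.97 to -2.14 with a library left out; the former end, without Rec-1, is set against Rec libraries at 0 and depends on the prior count. Its lower bound in Str vs. Ctrl was 9.12 to 13.1. At levels of 0 to 169 counts, LOC113663546 rests on few read pairs, and 3 libraries per group limit every comparison.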

Other observations

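LOC113649476, one of the C-C motif chemokine 3 loci that were not tested, had 92 counts in Rec-3 and at most 10 counts in any other library. Rec-3 was also the highest Rec library for LOC113649477 and LOC113649479, at 6.28 and 1.47 FPKM, which lie on the same scaffold, but the lowest for LOC113649484 there, at 0.19 FPKM against 0.862 and 0.358 FPKM in Rec-1 and Rec-2.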
